A study of Mus musculus with 12 samples.

Results

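The voltage-gated sodium and calcium channel genes were followed in RNA of light membranes, rich in myelin, that were isolated from mouse brain. They were chosen by symbol alone: every gene of the table named as a sodium channel alpha or beta subunit (Scn), or as a calcium channel alpha1 (Cacna1), alpha2delta (Cacna2d), beta (Cacnb) or gamma (Cacng) subunit. This gave 39 of 21937 genes, namely 9 sodium alpha, 4 sodium beta, 10 calcium alpha1, 4 alpha2delta, 4 calcium beta and 8 Cacng genes. The samples came from brains of male wild type mice of the inbred strain c57Bl6/N aged 18 days (P18), 75 days (P75), 6 months or 24 months. There were 12 samples, 3 for each age. The labels name no treatment for any group. The labels do not say that the samples of an age came from separate animals, so the p-values reflect only how far these samples spread, which may be technical. As they name no batch, nothing could be compared within batches.

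Voltage-gated sodium channels carry the action potential along axons. Each has an alpha subunit that forms the pore and beta subunits that anchor it and tune its gating. Along myelinated axons they cluster at the nodes of Ranvier, the gaps between segments of myelin. Voltage-gated calcium channels turn depolarisation into calcium entry, which triggers transmitter release at nerve endings and signals to the nucleus in cell bodies and dendrites. An alpha1 subunit forms their pore, while alpha2delta and beta subunits bring it to the membrane and set its gating. Most genes of the Cacng family encode TARPs, partner proteins that carry AMPA-type glutamate receptors to synapses. Neurons are the main source of most of these transcripts in brain, and oligodendrocytes, astrocytes and vessel cells express some of them. In such a bulk fraction, fewer cells (or cell fragments) of a type and less RNA per cell cannot be told apart.

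Each value is a normalised read count, a gene's reads divided by a factor that corrects for the depth of the sample. The samples held 20299052 to 27214385 reads in genes. Testing was limited to genes with a value of 10 or more in at least 3 samples, a condition that 34 of the 39 channel genes met. Differences are given on the scale log2(value + 1), later age minus earlier age, with the standard error (SE). A difference passed when its p, adjusted over all 14987 tested genes (limma, Benjamini-Hochberg), was under 0.05. Because neighbouring comparisons share the samples of the age between them, they are not independent.

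The 5 genes that were not tested are mostly known from other tissues. Scn4a, the skeletal muscle channel, had a value of 2.01 in the third P18 sample and 0 in the other 11. Scn11a, a channel of pain-sensing neurons, lay between 2 and 9.76, and Cacna1f, a retinal calcium channel, between 0 and 6.93. Cacng1, the gamma subunit of skeletal muscle, ranged from 2.44 to 8.33. Cacng6 was at 0 in 4 of the 6 samples of P18 and P75, reached 6.50 at most, and read 6.50, 6.21 and 5.84 at 6 months. Scn10a passed the filter at 10 only through the third P18 sample and the 3 samples of 24 months. Cacna1s, the skeletal muscle calcium channel, was tested at values of 18.1 to 36.1.

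Across the 4 ages, 31 of the 34 tested channel genes changed (91.2%, limma F test), while 77.4% of all tested genes did. Cacna1s, Cacnb3 and Cacng2 did not pass. Means were highest at 24 months for 18 of the 34 genes, at 6 months for 11, at P18 for 3 and at P75 for 2. Together the 39 genes held 0.125% to 0.167% of all values (P18), 0.184% to 0.198% (P75), 0.214% to 0.266% (6 months) and 0.227% to 0.263% (24 months). The ranges of P18, P75 and 6 months do not overlap, and those of 6 and 24 months do.

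The first interval brought mostly higher pore-forming and alpha2delta subunits. Between P18 and P75, 17 channel genes rose and 4 fell, or 61.8% of the 34, where 40.4% of all tested genes passed (21.7% higher, 18.7% lower). The median difference was 0.41 for the channel genes and 0.02 for all tested genes, on the log2 scale. Between P75 and 6 months, 16 rose and 2 fell (52.9%), close to the 52.4% of all genes that passed, but with a different split of directions (27.1% higher and 25.4% lower among all genes). Their median difference was 0.34, against 0.003 for all genes. With the trend over transcript length removed, that split became 14 higher and 7 lower, so the share of higher calls went from 88.9% to 66.7% and the median from 0.34 to 0.18. Between 6 and 24 months, 6 rose and 3 fell (26.5%), where 19.2% of all genes passed (10.8% higher, 8.34% lower), and the median difference was 0.06 against 0.03. With the trend over GC content removed, that split was 3 higher and 3 lower, a share of higher calls of 50% in place of 66.7%.

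By separation of the individual values, the channel genes were close to all genes in number. Between P18 and P75 the 3 values of one age lay wholly apart from those of the other for 17 of the 34 channel genes (50%), 14 higher and 3 lower, where 47.1% of all tested genes were so separated (24.7% higher, 22.4% lower). Between P75 and 6 months, 17 were wholly higher and 2 wholly lower (55.9%), against 62.3% of all genes (31.7% and 30.6%). Between 6 and 24 months, 11 were wholly higher and 5 wholly lower (47.1%), against 43.2% of all genes (23.2% and 19.9%).

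The count of 9 for the last interval rests on single samples. It was 2 without the second 24-month sample, 4 without the first, 5 without the first 6-month sample, and 4 without the second or without the third. It was 16 without the third P18 sample, and also 16 when those 2 ages alone were fitted. At 3 of the 4 ages 1 sample carried most of the high values of the channel genes. The third P18 sample was the highest of its age for 24 of the 34 genes (70.6%, against 43.9% of all tested genes), at a median of 1.19 times the mean of its age. The first 6-month sample was highest for 28 (82.4%, against 36.6%), and the third 24-month sample for 23 (67.6%, against 41.3%).

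**Figure D1:**
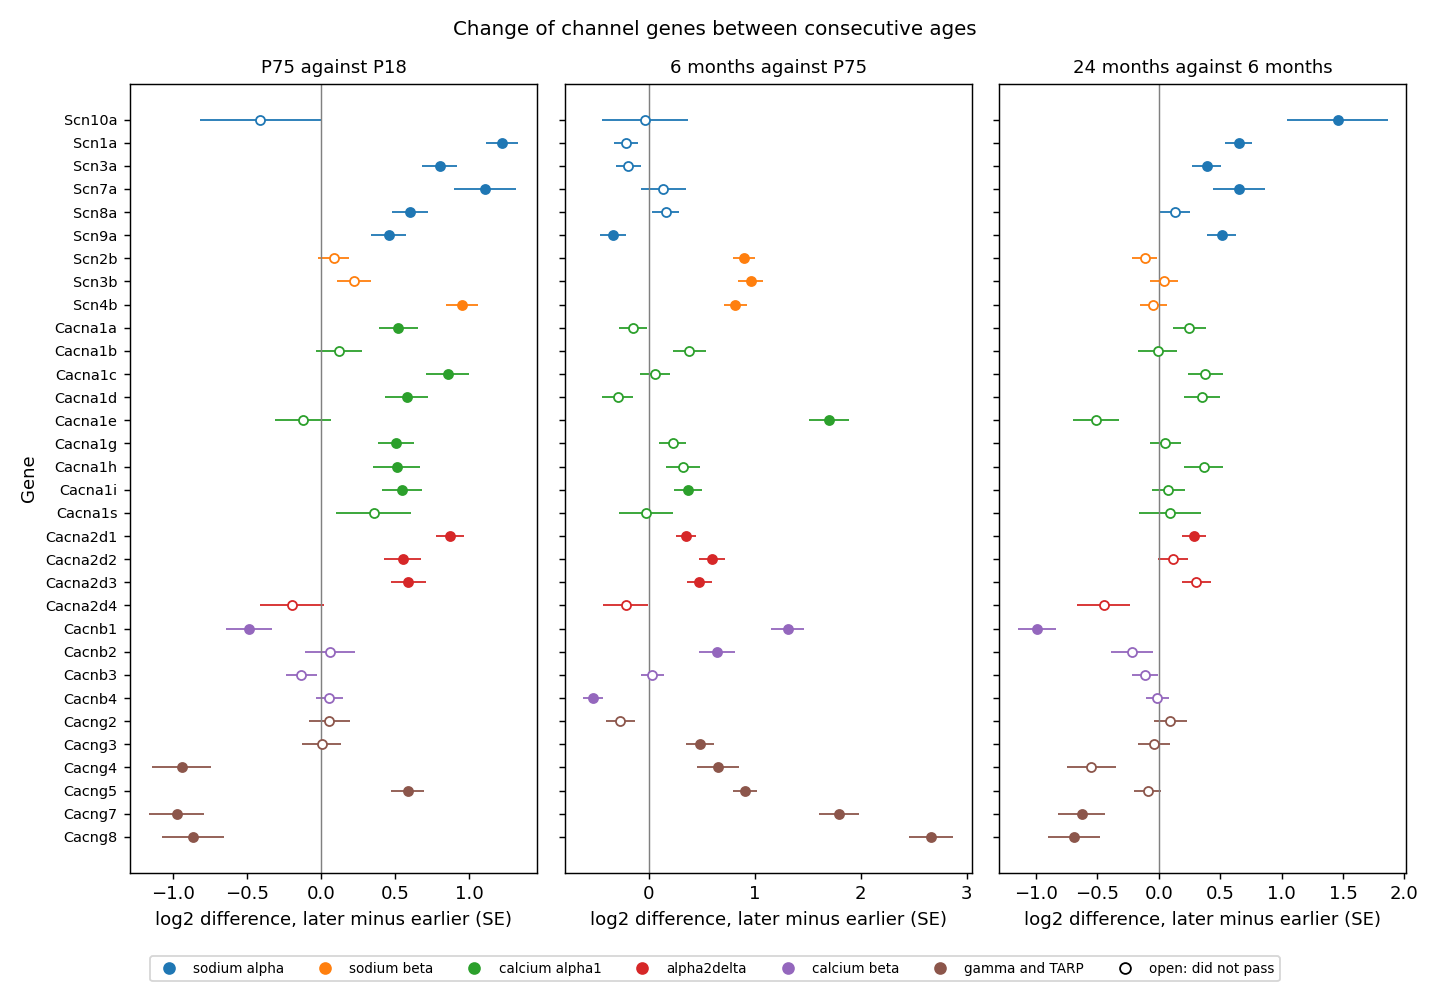
Log2 difference between consecutive ages (horizontal axis, later minus earlier, bars show the SE) for the tested channel genes described here (vertical axis), coloured by subunit class; filled points passed and open points did not. Scn2b, Scn3b and Scn4b sit between 0.81 and 0.96 in the middle panel, while Cacng7, Cacng8 and Cacnb1 lie left of 0, then right, then left again.

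Per kilobase of exon, several small subunits were abundant. Over the 12 samples the mean was 1191 normalised reads per kb for Cacnb3, 671 for Scn2b, 566 for Cacnb4 and 539.5 for Scn4b. Scn1a, at 525 per kb, was the highest of the chosen pore-forming genes, ahead of Scn8a at 343 and of the leading calcium pore gene, Cacna1a, at 214. Scn2a, listed under the older symbol Scn2a1 and so not among those chosen, had 372 per kb. Among the alpha2delta genes Cacna2d3 (338 per kb) and Cacna2d1 (321 per kb) were close, and among the Cacng genes Cacng3 (436 per kb) and Cacng7 (364 per kb) led. At the low end, Cacna1s had 3.91 and Scn10a 1.19 per kb.

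Several sodium channel pore genes rose in early adulthood and again in old age. Scn1a, Scn3a, Scn7a, Scn8a and Scn9a rose between P18 and P75, Scn9a fell between P75 and 6 months, and Scn1a, Scn3a, Scn7a and Scn9a rose between 6 and 24 months. Of these 4 later rises, that of Scn1a passed in all 23 alternative analyses, and the others were each lost in at least 1. Scn1a and Scn8a, which encode main pores of adult brain, were the most abundant of the chosen sodium alpha genes per kb at every age. Scn2a, listed under an older symbol, is not among them and is described below. Scn8a is the channel of mature nodes of Ranvier, and Scn1a is best known for driving inhibitory interneurons.

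Scn1a values were 1885, 1967 and 2499 (P18), 4451, 4943 and 5354 (P75), 4595, 3789 and 4316 (6 months) and 6654, 6961 and 6294 (24 months). The 3 samples of each of P75, 6 and 24 months lay above all P18 samples, the 24-month samples lay above all others, and P75 and 6 months overlapped. The gene rose by 1.22 (SE 0.11, adjusted p = 9.81e-07) at P75 and by 0.65 (SE 0.11, adjusted p = 0.00176) at 24 months. The difference at 6 months, -0.22 (SE 0.11, adjusted p = 0.113), did not pass, though it did with the length trend removed, at -0.38 (adjusted p = 0.007), and without the third P18 sample (adjusted p = 0.0453).

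Scn8a values were 2468, 2550.2 and 3397 (P18), 4294, 4589.5 and 3788 (P75), 5347, 4284 and 4519 (6 months) and 4733, 5116 and 5652 (24 months). Its P18 samples lay below all later ones, P75 overlapped 6 months, and 6 months overlapped 24 months. It rose by 0.60 at P75 (SE 0.12, adjusted p = 0.00112) and did not pass afterwards, with differences of 0.16 and 0.13. The ratio of Scn1a to Scn8a values was 0.757 ± 0.019 (P18, SD, n = 3), 1.18 ± 0.21 (P75), 0.900 ± 0.050 (6 months) and 1.29 ± 0.16 (24 months). Per kb, Scn1a accounted for 44.5%, 54.4%, 49.5% and 57.1% of the class at the 4 ages, and Scn8a for 40.6%, 32.4%, 38.1% and 30.7%. The class as chosen leaves out Scn2a.

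Scn3a, known as the fetal and neonatal brain sodium channel, was higher in every later sample than in any P18 sample. As no sample is younger than P18, a decline before that age could not be seen. Scn3a values were 509, 549 and 736 (P18), 1052, 977 and 1058 (P75), 992, 845 and 869 (6 months) and 1099, 1249.9 and 1196 (24 months). P18 lay apart from all later ages, and 6 and 24 months did not overlap. It rose by 0.80 at P75 (SE 0.12, adjusted p = 6.57e-05) and by 0.39 at 24 months (SE 0.12, adjusted p = 0.0296). The second of these calls was lost on leaving out the second or the third sample of 6 or of 24 months (adjusted p 0.0704 to 0.112) and with the GC trend removed (0.0628). At 6 months the difference was -0.19 and did not pass; with the length trend removed it was -0.36 and passed (adjusted p = 0.00721).

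Scn7a encodes a sodium-level sensor rather than a voltage-gated pore, and is known from glia of the salt-sensing organs. Its values were 26.1, 36.2 and 35.2 (P18), 81.2, 51.9 and 82.9 (P75), 85.3, 60.4 and 90.5 (6 months) and 113, 138 and 118 (24 months). All P18 samples were below, and all 24-month samples above, the rest. It rose by 1.11 at P75 (SE 0.21, adjusted p = 0.000604) and by 0.66 at 24 months (SE 0.21, adjusted p = 0.0396). The later call was lost in 8 of 23 alternative analyses, among them those without the first or second 6-month sample (0.0735 and 0.173) or without any 1 of the 24-month samples (0.0698 to 0.142).

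Scn9a, best known from peripheral sensory neurons, was the only pore gene that fell between P75 and 6 months with the deposited scaling. Its values were 114, 107 and 119.5 (P18), 142, 158 and 169 (P75), 134, 121 and 116 (6 months) and 170.4, 188 and 171 (24 months). P75, 6 months and 24 months were each separate from the age before, in alternating directions: 0.46 (SE 0.12), -0.34 (SE 0.12) and 0.51 (SE 0.12). The adjusted p-values were 0.0064, 0.0268 and 0.00926. The fall at 6 months was lost without the second or the third P75 sample (0.0639 and 0.0979) and without the second or the third 6-month sample (0.0707 and 0.0912). The last rise was lost without the second 24-month sample (0.0512). Scn1a, Scn9a and Scn7a are consecutive genes in the RefSeq gene order of GRCm38.p6, and all 3 rose in the first interval and in the last. Related pore genes resemble each other in sequence, so reads shared between Scn1a, Scn3a and Scn9a may be missing or assigned to the wrong gene.

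Scn10a, a channel of pain-sensing neurons, read 5.94, 4.52 and 11.1 (P18), 3.01, 6.49 and 5.53 (P75), 4.87, 5.33 and 3.89 (6 months) and 19.8, 15.1 and 10.2 (24 months). Its 24-month samples lay above the 6-month ones but the lowest of them was under the third P18 value. As the gene entered the test mainly through the 24-month samples, its difference of 1.46 at that age is a description with no test, although it is among the 6 genes counted as higher. It rests on 16 reads over the 3 samples of 6 months and 45 over those of 24 months, and was not called without any single 6-month sample or without the first or second 24-month sample.

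The channel Scn2a, which precedes Scn8a at developing nodes, is listed under its older symbol Scn2a1 and so is not among the 39. Its mean value was 2119 (P18), 2885 (P75), 4122 (6 months) and 4373 (24 months). It differed by 0.45 and 0.51 in the first and second interval (adjusted p = 0.00121 and 0.00027) and by 0.09 in the last (0.536). On values not corrected for length, Scn8a exceeded it in every sample, by 1.32 ± 0.12 times (P18, SD, n = 3), 1.47 ± 0.19 (P75), 1.14 ± 0.016 (6 months) and 1.18 ± 0.068 (24 months). Per kb, Scn8a was ahead at P75 only. Scn2a1 had means of 233 (P18), 318 (P75), 454 (6 months) and 482 (24 months) per kb, and Scn8a 227, 343, 383 and 419.

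**Figure D2:**
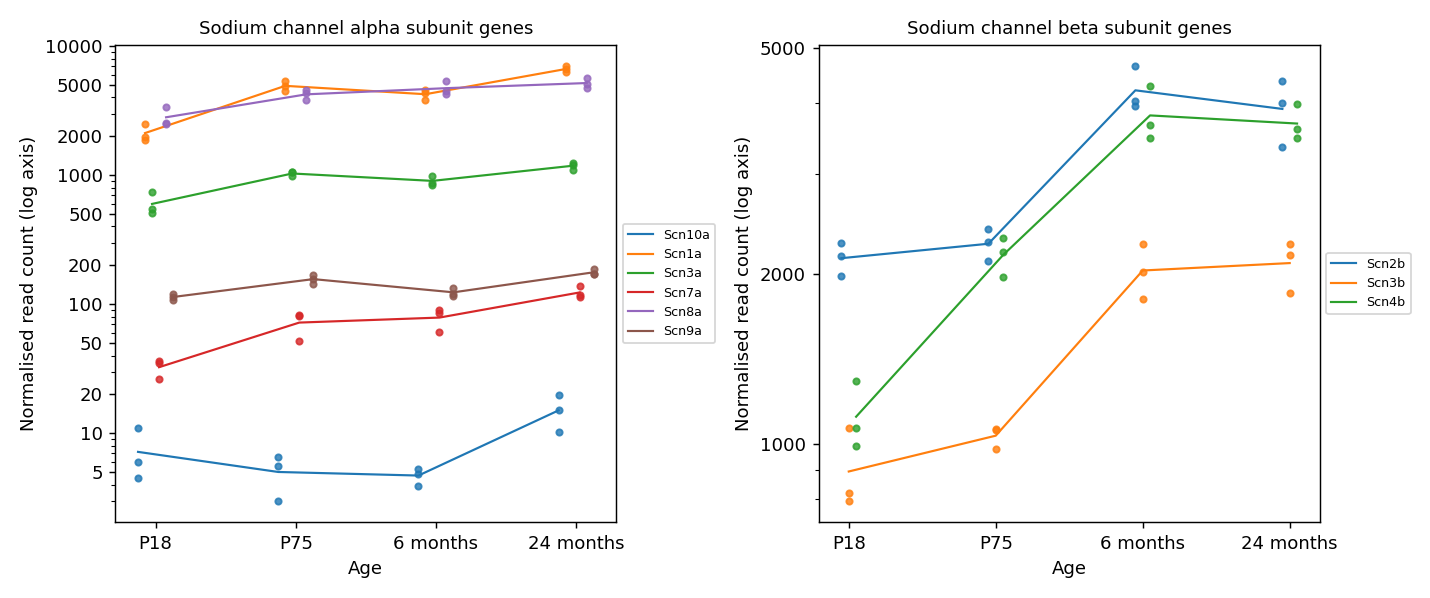
Normalised read count (vertical log axes) of sodium channel alpha (left) and beta (right) genes by age (horizontal axis), with 1 point per sample and a line through the means of 3 samples. Scn1a and Scn4b climb between P18 and P75, Scn1a from 1885 to 2499 up to 4451 to 5354. Scn2b, Scn3b and Scn4b climb between P75 and 6 months, Scn3b from 983 to 1065 up to 1803 to 2257.

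The sodium channel beta genes Scn2b, Scn3b and Scn4b all rose between P75 and 6 months with no overlap between these ages. In that interval 52.4% of all tested genes passed and 62.3% did not overlap. Scn4b alone of the 3 rose between P18 and P75, by 0.95 against 0.81 at 6 months, where 40.4% of all tested genes passed at P75. None of the 3 passed between 6 and 24 months (limma, with 0 at an unadjusted p under 0.05, and 0 with edgeR or DESeq2), beside 19.2% of all tested genes. The differences of Scn2b, Scn3b and Scn4b in the last interval were -0.11, 0.04 and -0.04. Between P75 and 6 months, the median difference of the sodium pore genes was -0.04. The difference between the classes was not tested.

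Scn3b, whose product associates with the pore without a covalent bond, had values of 796, 820.3 and 1071 (P18), 1060.2, 983 and 1065 (P75), 2257, 1803 and 2015 (6 months) and 1851, 2158 and 2252 (24 months). The adult ages from 6 months on were separate from both earlier ages, and it rose by 0.96 (SE 0.12, adjusted p = 5.76e-06) at 6 months. Scn2b and Scn4b encode beta subunits that are joined to the pore by a disulfide bond, and Scn4b is known for the resurgent current of fast-firing neurons. They are neighbours in the RefSeq gene order and both rose at 6 months, yet only Scn4b passed at P75, so the 250 bases before the start of each are printed for comparison. The sequences are from RefSeq (GRCm38.p6), on the plus strand, at chr9:45117626-45117875 for Scn2b and chr9:45138374-45138623 for Scn4b, and capitals mark a match to CCAAT or its reverse complement.
Scn2b: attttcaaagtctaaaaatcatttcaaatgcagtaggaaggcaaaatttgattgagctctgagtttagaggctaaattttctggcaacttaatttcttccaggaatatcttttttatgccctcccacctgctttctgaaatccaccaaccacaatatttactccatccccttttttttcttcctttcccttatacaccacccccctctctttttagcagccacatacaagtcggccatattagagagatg
Scn4b: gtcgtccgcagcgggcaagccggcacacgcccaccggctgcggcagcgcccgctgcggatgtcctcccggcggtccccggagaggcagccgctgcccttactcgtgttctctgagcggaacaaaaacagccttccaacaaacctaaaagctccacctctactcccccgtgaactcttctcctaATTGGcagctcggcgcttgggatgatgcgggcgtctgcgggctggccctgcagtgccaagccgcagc

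The windows differ in composition. The Scn2b window has a GC content of 38.4% and 1 CpG, and the Scn4b window 66% and 23 CpG, where the median over 32851 such windows is 52.4% and 6 CpG. Both strands were searched for the GC box (letters GGGCGG), the CCAAT box (letters CCAAT) and the TATA box (letters TATAAA). This found 1 CCAAT box in Scn4b, overlapping no other match, and none of the motifs in Scn2b. Of all windows, 32.7% hold the GC box, 33.8% the CCAAT box and 12.4% the TATA box. RefSeq windows were at hand for 29 of the 39 channel genes.

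Scn2b values were 1977, 2259.8 and 2149 (P18), 2274, 2398 and 2100.4 (P75), 4637, 4029 and 3956 (6 months) and 3339, 4004 and 4362 (24 months). P18 and P75 overlapped, as did 6 and 24 months, and the rise at 6 months was 0.90 (SE 0.10, adjusted p = 3.76e-06). Scn4b values were 995, 1295 and 1067 (P18), 2186, 2308 and 1975 (P75), 4277, 3471 and 3651 (6 months) and 3460.4, 3592 and 3978 (24 months). Here P18, P75 and 6 months were separate from one another, with rises of 0.95 (SE 0.11, adjusted p = 6.99e-06) and 0.81 (SE 0.11, adjusted p = 1.42e-05). Scn4b is abundant in striatal neurons. Of 9 striatal markers 3 rose and 1 fell at P75, and 5 rose and none fell at 6 months. These are 44.4% and 55.6% of the list, near the 40.4% and 52.4% of all tested genes. The summed share of the striatal markers was 0.0469% to 0.0769% (P18), 0.0742% to 0.0864% (P75), 0.0895% to 0.109% (6 months) and 0.103% to 0.117% (24 months), with none at 0. Their part in the Scn4b values was not tested.

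Calcium channel pore genes rose mainly before P75. Of 9 tested alpha1 genes, 6 rose and none fell between P18 and P75, 2 rose and none fell between P75 and 6 months, and none passed between 6 and 24 months with limma (4 did at an unadjusted p under 0.05). The shares that passed were 66.7%, 22.2% and 0% of the class, beside 40.4%, 52.4% and 19.2% of all tested genes. In that last interval limma called 5 of the 9 without the third P18 sample, and likewise with the 2 ages alone: Cacna1a, Cacna1c, Cacna1d and Cacna1h higher and Cacna1e lower. Cacna1c and Cacna1d also passed as higher with the length trend removed, Cacna1c as higher and Cacna1e as lower without the first P18 sample, and Cacna1e as lower without the second 6-month sample. On the recovered reads edgeR called Cacna1e lower, and DESeq2 called Cacna1e lower and Cacna1c higher. Cacna1a, the P/Q-type pore of fast transmitter release and of Purkinje cells, led the class with 27.2% to 34% of it per kb on average. Its values were 1084, 1124 and 1721 (P18), 1896, 1899.8 and 1720.1 (P75), 1803, 1575 and 1588 (6 months) and 1892, 2067 and 1937 (24 months). The third P18 sample reached the lowest P75 value, and the rise at P75 was 0.52 (SE 0.13, adjusted p = 0.00515). The later differences were -0.15 (adjusted p = 0.348; -0.31 and 0.0439 with the length trend removed) and 0.25 (adjusted p = 0.195; 0.0261 without the third P18 sample).

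Cacna1c and Cacna1d encode L-type pores, which couple activity to gene expression. Cacna1c values were 165, 210.2 and 270.2 (P18), 399, 367 and 381 (P75), 461, 347 and 392 (6 months) and 527, 515 and 511 (24 months). P18 was below all later samples and 24 months above all earlier ones. It rose by 0.86 at P75 (SE 0.14, adjusted p = 0.000217), and the difference of 0.38 at 24 months did not pass (adjusted p = 0.0728). Cacna1d values were 377, 405 and 581 (P18), 766, 635 and 607 (P75), 639, 487 and 513 (6 months) and 702, 648 and 738 (24 months). It rose by 0.58 at P75 (SE 0.15, adjusted p = 0.00495) without overlap. Its difference at 6 months, -0.30 (adjusted p = 0.102), passed only in some alternatives, among them that with the length trend removed (-0.46, adjusted p = 0.00832).

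The T-type pores, which open near the resting potential and support rhythmic firing, are encoded by Cacna1g, Cacna1h and Cacna1i. All 3 rose at P75, by 0.51 (SE 0.12), 0.51 (SE 0.16) and 0.55 (SE 0.13), with adjusted p of 0.00367, 0.0176 and 0.00375. For Cacna1h, whose P18 and P75 values overlapped, the call was lost without the first or second P18 sample (0.101 and 0.0655), without the first or second P75 sample (0.0784 and 0.054) and when only these 2 ages were fitted (0.0574). Cacna1i values were 534, 663 and 797 (P18), 1026, 1053 and 810.3 (P75), 1349, 1251 and 1127 (6 months) and 1220.5, 1289 and 1423 (24 months). It also passed at 6 months (0.37, adjusted p = 0.0266), a call lost with the length trend removed (0.21, 0.149), without the third P75 sample (0.143), and without the first or second 6-month sample (0.106 and 0.0631). Cacna1h means were 398 (P18), 553 (P75), 688 (6 months) and 889 (24 months), with no overlap between P75 and 6 months or between 6 and 24 months. Neither later difference passed, at 0.32 (adjusted p = 0.0995) and 0.37 (adjusted p = 0.113), although both did without the third P18 sample (0.0136 and 0.0164) and with the 2 ages alone (0.0177 and 0.00714).

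Cacna1e, the R-type pore found in dendrites and nerve endings, had the largest difference of the alpha1 genes at 6 months. Its values were 235, 327 and 391 (P18), 349.7, 272 and 244 (P75), 1176, 739 and 921 (6 months) and 584, 612 and 771 (24 months). P18 and P75 overlapped, and every 6-month sample exceeded every sample of both. The rise at 6 months was 1.70 (SE 0.19, adjusted p = 2.85e-06), 3.25-fold, and its mean share of the alpha1 class per kb went from 2.75% to 8.01%. Between 6 and 24 months it differed by -0.51 (SE 0.19, adjusted p = 0.0667), with the highest 24-month value above the lowest 6-month one. Cacna1b, the N-type pore of nerve endings, had a mean of 262 (P18), 288 (P75), 372 (6 months) and 367 (24 months). Its difference of 0.38 at 6 months had an adjusted p of 0.0503, and passed in 8 of 23 alternatives (0.0207 to 0.0491).

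Most alpha2delta genes rose more than once. Of the 4, 3 rose and none fell in each of the first 2 intervals, and 1 rose and none fell in the last. These are 75%, 75% and 25% of a small class, beside 40.4%, 52.4% and 19.2% of all tested genes. Cacna2d1 and Cacna2d2 encode the receptors for gabapentin, and Cacna2d3 acts at synapses and in hearing. Cacna2d1 values were 1269, 1268 and 1509 (P18), 2438, 2359 and 2570.2 (P75), 3413, 2839 and 3182 (6 months) and 3555, 3927 and 4008 (24 months). Each age lay wholly above the age before it. The rises were 0.87 (SE 0.094, adjusted p = 4.43e-06), 0.35 (SE 0.094, adjusted p = 0.00471) and 0.29 (SE 0.094, adjusted p = 0.0426). The second was 0.19 (adjusted p = 0.0585) with the length trend removed, and the third was lost in 9 of 23 alternatives, among them those without the first or second P75 sample, the second or the third 6-month sample or any 24-month sample (0.0512 to 0.175).

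Cacna2d3 values were 620.3, 703 and 923 (P18), 1059, 1152 and 1128 (P75), 1645, 1513 and 1488 (6 months) and 1793, 1892 and 2068 (24 months). Its ages did not overlap either, and it rose by 0.59 (SE 0.12, adjusted p = 0.000755) and 0.48 (SE 0.12, adjusted p = 0.00257), while the last difference of 0.31 did not pass (adjusted p = 0.0709) but did in 5 of 23 alternatives (0.011 to 0.0475). Cacna2d2 rose by 0.55 (adjusted p = 0.00215) and 0.59 (adjusted p = 0.00081), from a mean of 570 at P18 to 825 at P75 and 1251 at 6 months. Cacna2d4, known from the retina, went the other way in its means, from 83.5 (P18) to 69.9 (P75), 60.5 (6 months) and 43.7 (24 months). It did not pass in any single interval, although it passed the F test over the 4 ages (adjusted p = 0.00918).

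**Figure D3:**
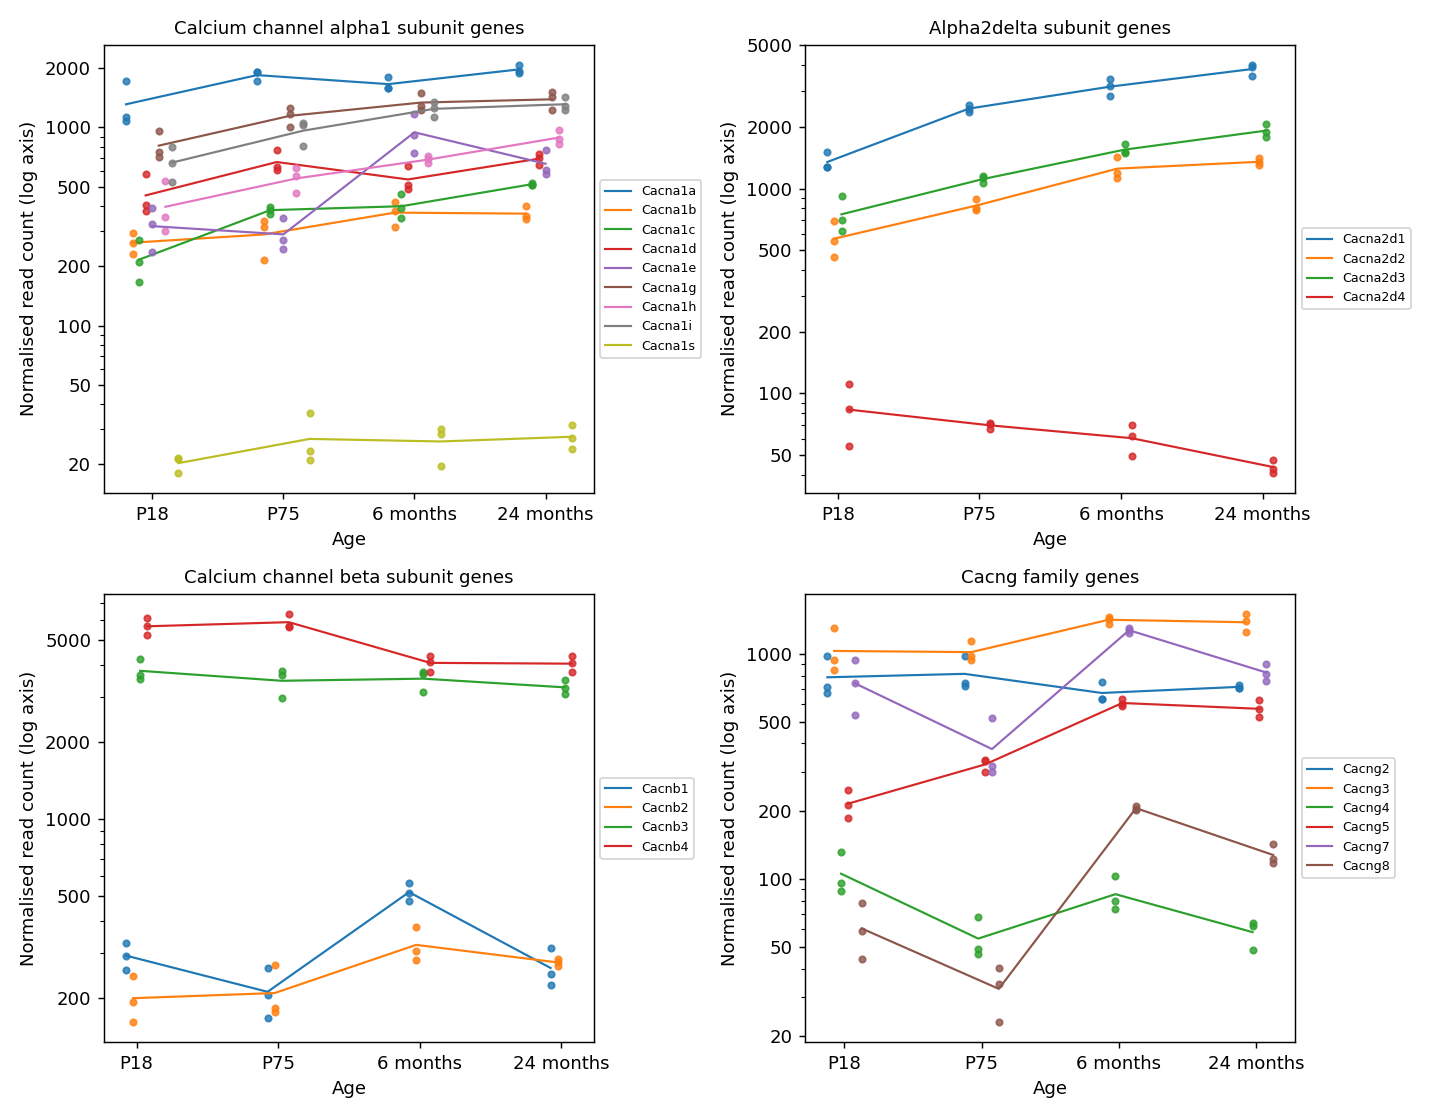
Normalised read count (vertical log axes) of the tested calcium channel alpha1, alpha2delta, beta and Cacng genes by age (horizontal axis), with 1 point per sample and a line through the means of 3 samples. Cacna2d1 climbs at each age, while Cacna1e, Cacnb1, Cacng7 and Cacng8 peak at 6 months, Cacng8 at 202 to 212.

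The summed share of the calcium channel beta genes did not grow with age. It was 0.0350% to 0.0463% (P18), 0.0429% to 0.0441% (P75), 0.0346% to 0.0390% (6 months) and 0.0321% to 0.0348% (24 months). Cacnb4 is the subunit mutated in the lethargic mouse. Per kb it held 25.2% to 34.9% of the class on average at the 4 ages, and Cacnb3 60.2% to 65.3%. Cacnb4 values were 6104, 5237 and 5683 (P18), 5659.9, 5685 and 6323 (P75), 4353, 3777 and 4121 (6 months) and 4072, 4337 and 3755 (24 months). All P18 and P75 samples lay above all later ones. It fell by 0.53 at 6 months (SE 0.092, adjusted p = 0.000176), and its differences of 0.05 at P75 and -0.01 at 24 months did not pass. Cacnb3, the highest of the class per kb, did not pass in any comparison and lay between 2976 and 4209.6 in the 12 samples.

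Cacnb1, a beta subunit of skeletal muscle and brain, passed in every interval, though at P75 the call depended on single samples. Its values were 258, 329 and 293 (P18), 263, 206 and 167 (P75), 564, 515 and 479 (6 months) and 226, 248 and 314 (24 months). The 6-month samples lay above all others, and P18 and P75 overlapped in 1 sample each. It fell by 0.49 at P75 (SE 0.16, adjusted p = 0.0206), rose by 1.31 at 6 months (SE 0.16, adjusted p = 5.25e-06) and fell by 0.99 at 24 months (SE 0.16, adjusted p = 0.00112). The fall at P75 was lost without the second P18 sample (0.0872) and without the second or the third P75 sample (0.0525 and 0.118). Of the striated muscle markers, 6 of 10 could be tested, none rose in any interval and 2 fell at 6 months. The shares that passed were 0%, 33.3% and 0% in the 3 intervals, beside 40.4%, 52.4% and 19.2% of all tested genes. The summed share of the muscle markers was 0.000845% to 0.00146% over all samples. Their part in the Cacnb1 values was not tested. Cacnb2, the main beta subunit of heart, read 162, 193 and 245 (P18), 182, 176 and 269.7 (P75), 379, 283 and 307 (6 months) and 267, 277 and 283 (24 months). It rose by 0.64 at 6 months (SE 0.17, adjusted p = 0.00481), where P75 and 6 months did not overlap.

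In the Cacng family, 1 gene rose and 3 fell between P18 and P75, 5 of 6 rose and none fell between P75 and 6 months, and 2 fell and none rose between 6 and 24 months. These are 66.7%, 83.3% and 33.3% of the tested family, beside 40.4%, 52.4% and 19.2% of all tested genes. Cacng2 (stargazin), Cacng3, Cacng4 and Cacng8 encode TARPs of the classical type, and Cacng5 and Cacng7 those of a second type. Cacng8, the TARP enriched in hippocampus, showed the largest difference of all tested channel genes in the middle interval. Its values were 44.0, 58.8 and 78.4 (P18), 40.1, 34.3 and 23.2 (P75), 212, 205 and 202 (6 months) and 118, 123 and 143 (24 months). The ages were all separate from one another. It fell by 0.87 at P75 (SE 0.21, adjusted p = 0.00347), rose by 2.66 at 6 months (SE 0.21, adjusted p = 1.29e-07), or 6.33-fold, and fell by 0.69 at 24 months (SE 0.21, adjusted p = 0.0307).

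Cacng7, its neighbour in the RefSeq gene order, had values of 746, 941 and 534 (P18), 518, 318 and 297 (P75), 1306, 1272 and 1243 (6 months) and 759.8, 814 and 905 (24 months). P75 was below and 6 months above all other samples, and P18 overlapped 24 months. Its differences were -0.98 (SE 0.19, adjusted p = 0.000698), 1.80 (SE 0.19, adjusted p = 1.81e-06) and -0.63 (SE 0.19, adjusted p = 0.0307). For both genes the last call was lost without any single 6-month sample or without the first or second 24-month sample (adjusted p 0.0591 to 0.0978 for Cacng8 and 0.0553 to 0.103 for Cacng7). The ratio of Cacng8 to Cacng7 values was 0.0893 ± 0.050 (P18, SD, n = 3), 0.0878 ± 0.017 (P75), 0.162 ± 0.00086 (6 months) and 0.155 ± 0.0031 (24 months).

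Cacng4, a TARP that oligodendrocyte precursors also express, had values of 96.3, 132 and 88.4 (P18), 49.1, 67.7 and 46.4 (P75), 103, 79.9 and 74.0 (6 months) and 48.5, 63.8 and 62.0 (24 months). All P75 samples were below all P18 and 6-month samples. It fell by 0.94 at P75 (SE 0.20, adjusted p = 0.00142) and rose by 0.65 at 6 months (SE 0.20, adjusted p = 0.0122), the latter not without the third P75 sample (0.0548) or the first 6-month sample (0.0722). Of 9 precursor markers, 1 rose and 4 fell at P75, and 5 rose and 1 fell at 6 months. These are 55.6% and 66.7% of the list, beside 40.4% and 52.4% of all tested genes. Their differences ran from -2.29 (Gpr17, adjusted p = 1.58e-06) to 0.56 at P75. At 6 months they ran from -0.54 to 0.82 (Ptprz1, adjusted p = 8.24e-05). The summed share of these markers was 0.0237% to 0.0274% (P18), 0.0218% to 0.0261% (P75), 0.0305% to 0.0387% (6 months) and 0.0265% to 0.0325% (24 months), with none at 0. Their part in the Cacng4 values was not tested.

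Cacng5 rose in both of the first 2 intervals, by 0.59 (SE 0.11, adjusted p = 0.000601) and 0.91 (SE 0.11, adjusted p = 7.08e-06). Its values were 213, 186 and 249 (P18), 338, 334 and 297 (P75), 631, 588 and 597 (6 months) and 522, 567 and 622 (24 months). P18, P75 and the later ages formed 3 separate ranges. Cacng3, the most abundant of the family per kb, read 845, 941 and 1306 (P18), 939, 1139 and 977 (P75), 1425, 1362 and 1466 (6 months) and 1248, 1398 and 1499.6 (24 months). It rose by 0.48 at 6 months (SE 0.13, adjusted p = 0.00525) and did not pass in the other intervals (0.00 and -0.04). Cacng2 lay between 631 and 983 and did not pass at 6 months, except with the length trend removed (-0.41, adjusted p = 0.0187) and without the third P18 sample (-0.27, 0.0372).

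Channel genes are long, and removing a trend over length moved their differences in every interval. The tested channel genes had a median exon length of 6560 bases, against 3348 for all tested genes with a length, and 29 of the 34 were longer than that median. Pore genes were longest (medians of 8547 bases for sodium alpha and 8982 for calcium alpha1). With the trend removed, Scn2b, Scn3b and Scn4b still passed at 6 months, at 0.76, 0.83 and 0.68. The sodium alpha median went from -0.04 to -0.19. The alpha2delta median went from 0.42 to 0.28, where Cacna2d1 lost its call, and the Cacng median from 0.78 to 0.67. Between P18 and P75, the median of all tested channel genes went from 0.41 to 0.31. The sodium alpha median there went from 0.60 to 0.42 and the calcium alpha1 median from 0.51 to 0.41, and 20 channel genes still passed. Between 6 and 24 months the median of all tested channel genes went from 0.06 to 0.14.

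**Figure D4:**
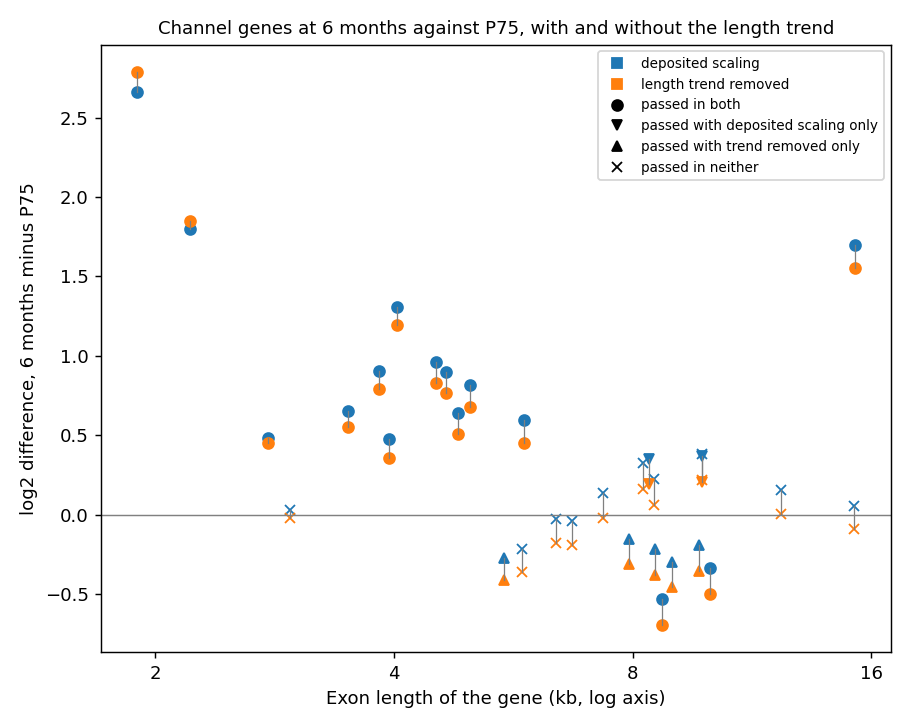
Log2 difference between P75 and 6 months (vertical axis, later minus earlier) against exon length in kb (horizontal log axis) for the tested channel genes described here, each drawn with the deposited scaling (blue) and with the trend over length removed (orange). All drawn genes except Cacng7 and Cacng8 shift down when the trend is removed. Scn1a, Scn3a, Cacna1a, Cacna1d and Cacng2 then passed as lower, while Cacna1i and Cacna2d1 no longer passed as higher.

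Proteins that hold sodium channels in place or modify them moved in mixed directions. Of 17 tested sodium channel partners, 5 rose and 6 fell at P75, 10 rose and 1 fell at 6 months, and 1 rose and 4 fell at 24 months. These are 64.7%, 64.7% and 29.4% of the list, beside the 40.4%, 52.4% and 19.2% of all tested genes. Their median differences were -0.09, 0.38 and -0.09. Nalcn, the sodium leak channel, rose in all 3 intervals, by 0.93 (adjusted p = 5.2e-06), 0.76 (1.58e-05) and 0.41 (0.0128). Nrcam, an adhesion molecule of the node, rose by 0.78 at 6 months (adjusted p = 1.63e-05), and Mapk8ip2, a scaffold protein, by 1.37 (3.14e-06). Fgf13, a cytoplasmic modulator of sodium channels, fell by 0.63 at P75 (adjusted p = 3.18e-05).

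Among 18 tested calcium channel partners, 1 rose and 6 fell at P75, 9 rose and 1 fell at 6 months, and none rose and 5 fell at 24 months, with medians of -0.33, 0.35 and -0.15. At 38.9%, 55.6% and 27.8% of the list, the first 2 shares are near those of all tested genes. Rims2, an active zone protein that tethers calcium channels at release sites, fell by 1.13 at P75 (adjusted p = 1.45e-05) and rose by 1.67 at 6 months (1.98e-07). Rimbp2, which links the Rims proteins to calcium channels, rose by 1.81 at 6 months (1.3e-06) and fell by 0.80 at 24 months (0.00898). In these intervals Cacng7, Cacng8 and Cacnb1 moved in the same directions.

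Of 18 genes for calcium pumps, exchangers and stores, 11 rose and 1 fell at P75, 12 rose and 1 fell at 6 months, and 2 rose and 1 fell at 24 months. These are 66.7%, 72.2% and 16.7% of the list, beside 40.4%, 52.4% and 19.2% of all tested genes. The list medians were 0.59, 0.64 and -0.03. Itpr1, a calcium release channel of the endoplasmic reticulum, rose by 1.2 at P75 (adjusted p = 2.54e-06), and Atp2b4, a plasma membrane calcium pump, rose by 2.55 at 6 months (1.23e-07) and fell by 0.91 at 24 months (0.00645). Of 13 AMPA receptor and auxiliary genes, the partners of the TARPs, 5 rose and 6 fell at P75, 10 rose and none fell at 6 months, and 2 rose and 3 fell at 24 months. That is 84.6%, 76.9% and 38.5% of this list, beside the same 40.4%, 52.4% and 19.2% of all tested genes. Medians were -0.04, 0.41 and -0.10. Gria2 and Gria3, receptor subunits, rose at P75 by 0.95 (3.76e-05) and 0.93 (1.49e-05), while the lowest difference of the list was -0.80. In that interval Cacng4, Cacng7 and Cacng8 fell, Cacng5 rose, and Cacng2 and Cacng3 did not pass. Shisa9, another auxiliary subunit, rose by 1.04 at 6 months (2.44e-06).

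Markers of neurons changed as well. Of 14 neuron markers, 3 rose and 5 fell at P75, 9 rose and 3 fell at 6 months, and 1 rose and 3 fell at 24 months. These are 57.1%, 85.7% and 28.6% of the list, beside 40.4%, 52.4% and 19.2% of all tested genes. The list medians were -0.09, 0.38 and -0.19. Syt1, a synaptic vesicle protein, rose by 2.34 at 6 months (adjusted p = 7.34e-09) and Slc17a7, the glutamate transporter of cortical synaptic vesicles, by 1.41 (3.27e-06). The lowest difference of the list at that age was -0.68. The summed share of the neuron markers was 0.718% to 1.03% (P18), 0.958% to 1.11% (P75), 0.864% to 0.985% (6 months) and 0.812% to 0.892% (24 months), with none at 0. The summed share of the channel genes grew up to 6 months, and that of the neuron markers was not higher after P75. Gene by gene, the median difference at 6 months was 0.34 for the channel genes and 0.38 for the neuron markers. The 12 markers of mature oligodendrocytes held 10.3% to 22.1% (P18), 5.37% to 7.83% (P75), 6.05% to 9.60% (6 months) and 6.34% to 8.56% (24 months). Of them 3 rose and 5 fell at P75, 3 rose and none fell at 6 months, and 1 rose and 2 fell at 24 months. That is 66.7%, 25% and 25% of this list, beside 40.4%, 52.4% and 19.2% of all tested genes. The part of either list in the channel gene results was not tested.

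Smaller marker lists bear on single genes. Beside their counts, 40.4%, 52.4% and 19.2% of all tested genes passed in the 3 intervals. Cacna1a is abundant in Purkinje cells: of 5 tested Purkinje markers none rose and 1 fell at P75, 3 rose and none fell at 6 months, and none rose and 2 fell at 24 months, with a share of 0.0498% to 0.0833%. Among 6 granule cell markers 1 rose and 2 fell at P75, 2 rose and 1 fell at 6 months, and 1 rose and 1 fell at 24 months. Cacna1c and Cacna1h are also made by vessel cells: of 10 mural and fibroblast markers 3 rose and 1 fell at P75, and the share went from 0.00411% to 0.00560% (P18) to 0.00671% to 0.00764% (P75), 0.00876% to 0.0104% (6 months) and 0.00894% to 0.0109% (24 months). Choroid plexus markers numbered 6, of which 4, 5 and 1 rose in the 3 intervals and none fell. Of 8 microglial markers 4 rose at P75, 5 rose and 1 fell at 6 months, and 3 rose at 24 months. Of 8 astrocyte markers 1 rose and 2 fell at P75, and 2 rose and 1 fell at 6 months. Of 8 endothelial markers 1 rose at P75, and 2 rose and 1 fell at 6 months. Of 6 olfactory markers 3 rose at P75 and 1 fell at 6 months. No marker of these lists was at 0 in all samples, and the part of these cells in the results was not tested.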

How the data were processed

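RNA of 12 samples of a myelin-enriched brain fraction was sequenced, 3 at each of 4 ages. The deposited values are signals that the authors obtained by dividing each gene's read count by the size factor of its sample. The submitters' processing notes name TopHat, HTSeq, DESeq and the build mm9, without versions; the strand setting is not given in the sources used here, so reads of overlapping or antisense genes cannot be told apart. All 12 columns were used. Each column proved to be built from 1 step, of which 100% of its values were whole multiples (tolerance 0.0061). Division by it recovered whole reads, 20299052 to 27214385 per sample. The reads behind a value set its counting precision, and the floor of a gene at 0 is 3 reads.

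Values were tested as log2(value + 1) in R 4.3.3, using limma 3.58.1 (mean-variance trend, all 12 samples in 4 age groups, two-sided), with Benjamini-Hochberg adjustment over the 14987 genes that reached 10 in at least 3 samples and a threshold of 0.05. Folds on this scale understate changes of low genes. Exon lengths are those of GENCODE M21 (GRCm38), matched by symbol, and serve for values per kb and the length trend (lowess, span 0.3). The build of the counts differs, so no coordinates of the counted genes are given. The only coordinates printed are those of the Scn2b and Scn4b windows, on GRCm38.p6.

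Alternatives were other pseudocounts, no or a stricter filter (50 in 3 samples), quantile normalisation, removal of a length trend, edgeR 4.0.16 and DESeq2 1.42.0 on the recovered reads, the 2 ages alone, a replicate block and leaving out each sample. Removal of a GC trend was added after seeing the data. The count test with edgeR called 5982, 7956 and 3185 genes in the 3 intervals, and limma 6051, 7859 and 2876. On simulated counts of P75 against P18 over 14987 genes, limma recovered 94% of genes changed by 1 on the log2 scale and 54% of those changed by 0.5.

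The genes and the pathway and marker lists were chosen with earlier results of these data known. Up to 16 genes with the largest passing differences per interval were named, with the most abundant of each class and up to 3 genes per list. Other channel genes were added to account for each class, after their values were seen. Results for 2 of the tested channel genes are not reported here, and the counts over all channel genes include them.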

Additional observations from a re-analysis of the deposited data

How the results depend on the processing

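No call of a channel gene changed direction under any of the 23 alternatives. The count of 9 channel genes that passed between 6 and 24 months ranged from 2 to 16 when single samples were left out, and was 16 when those 2 ages alone were fitted; the cause was not tested. For all genes the corresponding count of 2876 ranged from 1230 to 3966 on leaving out single samples. The other counts stayed within 1.5 times. On leaving out samples, the P75 count was 18 to 22, the 6-month count 15 to 23 and the F test count 30 to 31. Of 43 differences that passed and met the naming rule, 32 passed under every alternative and 11 were lost under some; of 9 that met it and did not pass, 3 passed under some. Sample numbers did not pair the samples: deviations of same-numbered samples correlated at -0.185 to 0.165 over 18 pairs, and of different numbers at -0.149 to 0.189 over 36. With the replicate block, 20, 18 and 9 channel genes passed in the 3 intervals and 31 in the F test, and 5871, 7656, 2583 and 11377 of all genes; 1 channel gene call, at P75, was lost. Depth limits Scn10a and the 5 untested genes.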
